A study of Mus musculus with 18 samples.

Results

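The miR-181 family was followed in small RNA libraries of mouse brain cell fractions as 4 mature miRNAs, mmu-miR-181a-5p, mmu-miR-181b-5p, mmu-miR-181c-5p and mmu-miR-181d-5p, which were picked by name from the mature miRNA rows of the count table. They were 4 of 1978 mature miRNAs listed, of which 1054 had at least 1 count, and 4 of 203513 features in all. All 4 had counts in each of the 18 libraries, and all 4 passed the filter on low counts (at least 5 counts in at least 2 libraries) in each comparison. The mice were 10 months old and untreated, and either wild type (WT) or homozygous for an Atxn2 allele with a knocked-in expanded CAG repeat (Atxn2-CAG100-KIN, here KIN), a model of the human ataxia caused by such an expansion in ATXN2. Per the study's methods, single brains were dissociated and magnetic beads bound microglia by CD11b and then astrocytes by ACSA-2, while neurons were the unbound remainder after other cells had been removed. The 6 groups, astrocytes, microglia and neurons from WT and from KIN brains, held 3 libraries each. The study describes both male and female pairs of KIN and WT mice, and the labels do not give the sex of a library. The allele is present in all cells of the mouse, so none of the fractions isolates its action to one cell type. The labels number the libraries as biological replicates but do not tie a number to a brain, so p-values measure the spread between libraries.

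miRNAs are short RNAs that guide Argonaute proteins to messenger RNAs, mostly by pairing of the seed, the bases from the second to the eighth position, which lowers translation and stability of the target. Both arms of a hairpin precursor can give a mature strand, and the arm that is kept less often is called the passenger strand. The miR-181 family is an ancient family best known from lymphocyte development, where miR-181a tunes T cell receptor signalling, and it is expressed in brain, where it has been studied in astrocytes under stress and in neurons.

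The mature sequences are shown because the members share their seed, differ in few bases outside it and are therefore close to the limit of what read placement can separate. Sequences are from RefSeq (GRCm38.p6), were the same as those in the deposited table, and carry the seed in capitals:
mmu-miR-181a-5p: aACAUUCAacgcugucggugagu
mmu-miR-181b-5p: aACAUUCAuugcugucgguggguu
mmu-miR-181c-5p: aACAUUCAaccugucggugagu
mmu-miR-181d-5p: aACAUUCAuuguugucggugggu

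No other mature miRNA of the 1978 listed had these 7 bases at the seed position. Counted from 1 at the 5′ end, miR-181a-5p and miR-181b-5p differed by the substitutions A9U, C10U and A21G and by 1 further base in miR-181b-5p. miR-181c-5p had no substitution against miR-181a-5p and lacked its base 11, and miR-181d-5p differed from miR-181b-5p by C12U and by the lack of base 23. A read placed with a single error could thus be moved between miR-181a-5p and miR-181c-5p, or between miR-181b-5p and miR-181d-5p. Over the 18 libraries the counts were 69849 for miR-181a-5p, 25958 for miR-181b-5p, 701 for miR-181c-5p and 677 for miR-181d-5p.

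The members come from 6 hairpins at 3 loci of the mouse genome (GRCm39, gene models of GENCODE). On chromosome 1, Mir181a-1 (137894193 to 137894279) and Mir181b-1 (137894377 to 137894456) lie 97 bases apart on the plus strand and overlap exons of the long noncoding RNA gene Mir181a-1hg. On chromosome 2, Mir181a-2 (38742747 to 38742822) and Mir181b-2 (38743842 to 38743930) lie 1019 bases apart on the plus strand in an intron of the noncoding gene Nr6a1os and opposite an intron of Nr6a1, a nuclear receptor gene. On chromosome 8, Mir181d (84905345 to 84905416) and Mir181c (84905502 to 84905590) lie 85 bases apart on the minus strand in an intron of Nanos3, a germ cell gene. The mature sequences of miR-181a-5p and of miR-181b-5p are each encoded at both of 2 loci, so their counts do not tell the chromosome 1 locus from the chromosome 2 locus.

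Library totals ranged from 3144427 to 3980687 counts in astrocytes, from 3148211 to 4316748 in microglia and from 1211118 to 2427384 in neurons. Mature miRNAs made up 5.05% to 10.3% of the counts in astrocytes, 5.09% to 8.45% in microglia and 0.964% to 2.13% in neurons. Levels are therefore given on 2 scales, as counts per 1000000 of all counts (CPM) and as the percentage of mature miRNA counts. In these bulk fractions, fewer cells of a type and less RNA per cell cannot be told apart. The fractions were checked against miRNAs typical of cell types, summed and given per 1000000 mature miRNA counts. The 3 myeloid miRNAs (miR-142a-3p, miR-142a-5p and miR-223-3p) ranged from 52839 to 69956 in microglia and from 151 to 531 in astrocytes. In the neuron fraction they ranged from 4454 to 23562. The 5 neuronal miRNAs, among them miR-124-3p, ranged from 5482 to 12546 in neurons, from 702 to 3280 in microglia and from 12487 to 38886 in astrocytes, so they were not highest in the fraction labelled neurons. miR-150-5p, typical of lymphocytes, ranged from 15548 to 36118 in the neuron fraction and from 1017 to 2985 in the glial fractions. The 3 oligodendrocyte miRNAs ranged from 35047 to 49403 in astrocytes and from 60.5 to 5769.9 in neurons, the 3 erythroid ones from 2981 to 15669 in neurons and from 284 to 1554 in glia, and the 4 vascular ones from 2263 to 11879 over all fractions. Some of these also separated by genotype in astrocytes. In WT and KIN, the oligodendrocyte sum was at 35047 to 36542 and 36704 to 49403. The myeloid sum was at 151 to 202 and 296 to 531, in the same order. The vascular sum was at 10473 to 11879 and 5796 to 7863, and miR-150-5p at 2051 to 2985 and 1017 to 1545. Within the sums miR-219a-2-3p, miR-338-3p, miR-142a-5p, miR-223-3p and miR-143-3p overlapped, as did the erythroid sum. The part of all these miRNAs in the levels of the miR-181 members was not tested, and "neurons" below names the fraction.

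miR-181a-5p was the most abundant member in each library and miR-181c-5p and miR-181d-5p were scarce. Among all mature miRNAs ranked by counts, miR-181a-5p ranked from 8 to 13 in astrocytes, from 18 to 21 in microglia and from 6 to 9 in neurons. miR-181b-5p ranked from 23 to 34, from 38 to 44 and from 15 to 24 in the same order of fractions. miR-181c-5p held ranks from 62 to 97 in neurons and no rank better than 146 in the glial fractions.

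In astrocytes, miR-181a-5p was at 1003, 1635 and 1195 CPM in the WT libraries and at 2581, 2345 and 2184 CPM in the KIN libraries. Every KIN library was above every WT library, and WT replicate 2 was the nearest. In microglia the levels were 965, 964 and 1101 CPM in WT and 941, 1245 and 1279 CPM in KIN, and the groups overlapped. Neurons had the lowest CPM, with 333, 597 and 435 in WT and 792, 377 and 520.0 in KIN, again with overlap. The order of the group means ran from KIN astrocytes (2370 ± 200 CPM, SD, n = 3) over WT astrocytes (1278 ± 324), KIN microglia (1155 ± 186) and WT microglia (1010 ± 79.0) to KIN neurons (563 ± 211) and WT neurons (455 ± 133). In this order KIN astrocytes stood clear of the next group and the microglia stood clear of the neurons, while the other neighbours overlapped.

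miR-181b-5p was at 496, 686 and 599 CPM in WT astrocytes and at 1112, 1047 and 1055 CPM in KIN astrocytes. The KIN libraries lay close together and far above the WT libraries. In microglia it was at 251, 218.8 and 246 CPM in WT and at 215, 267 and 274 CPM in KIN, with overlap. In neurons it was at 109, 192 and 145.3 CPM in WT and at 357, 186 and 261 CPM in KIN, where KIN replicate 2 lay below the highest WT library.

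miR-181c-5p was at 9.86, 26.1 and 11.5 CPM in WT astrocytes and at 24.1, 22.6 and 14.5 CPM in KIN astrocytes. The WT library of replicate 2 was above all KIN libraries. In microglia it was at 6.62, 3.74 and 4.09 CPM in WT and at 2.54, 2.32 and 4.89 CPM in KIN, which rests on 8 to 23 counts per library. In neurons it was at 14.0, 18.4 and 10.5 CPM in WT and at 33.3, 12.4 and 17.7 CPM in KIN. The genotypes overlapped in each fraction, and the microglia were below all other libraries.

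miR-181d-5p had its highest CPM in the neuron fraction. It was at 14.9, 24.5 and 19.6 CPM in WT neurons and at 38.4, 26.0 and 28.9 CPM in KIN neurons, without overlap. In astrocytes it was at 8.59, 18.6 and 9.72 CPM in WT and at 19.5, 13.1 and 10.2 CPM in KIN. In microglia it was at 4.03, 3.74 and 4.36 CPM in WT and at 1.59, 2.78 and 3.03 CPM in KIN, which rests on 5 to 16 counts per library. All 3 KIN microglia libraries were below the WT ones, and the astrocyte groups overlapped.

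**Figure D1:**
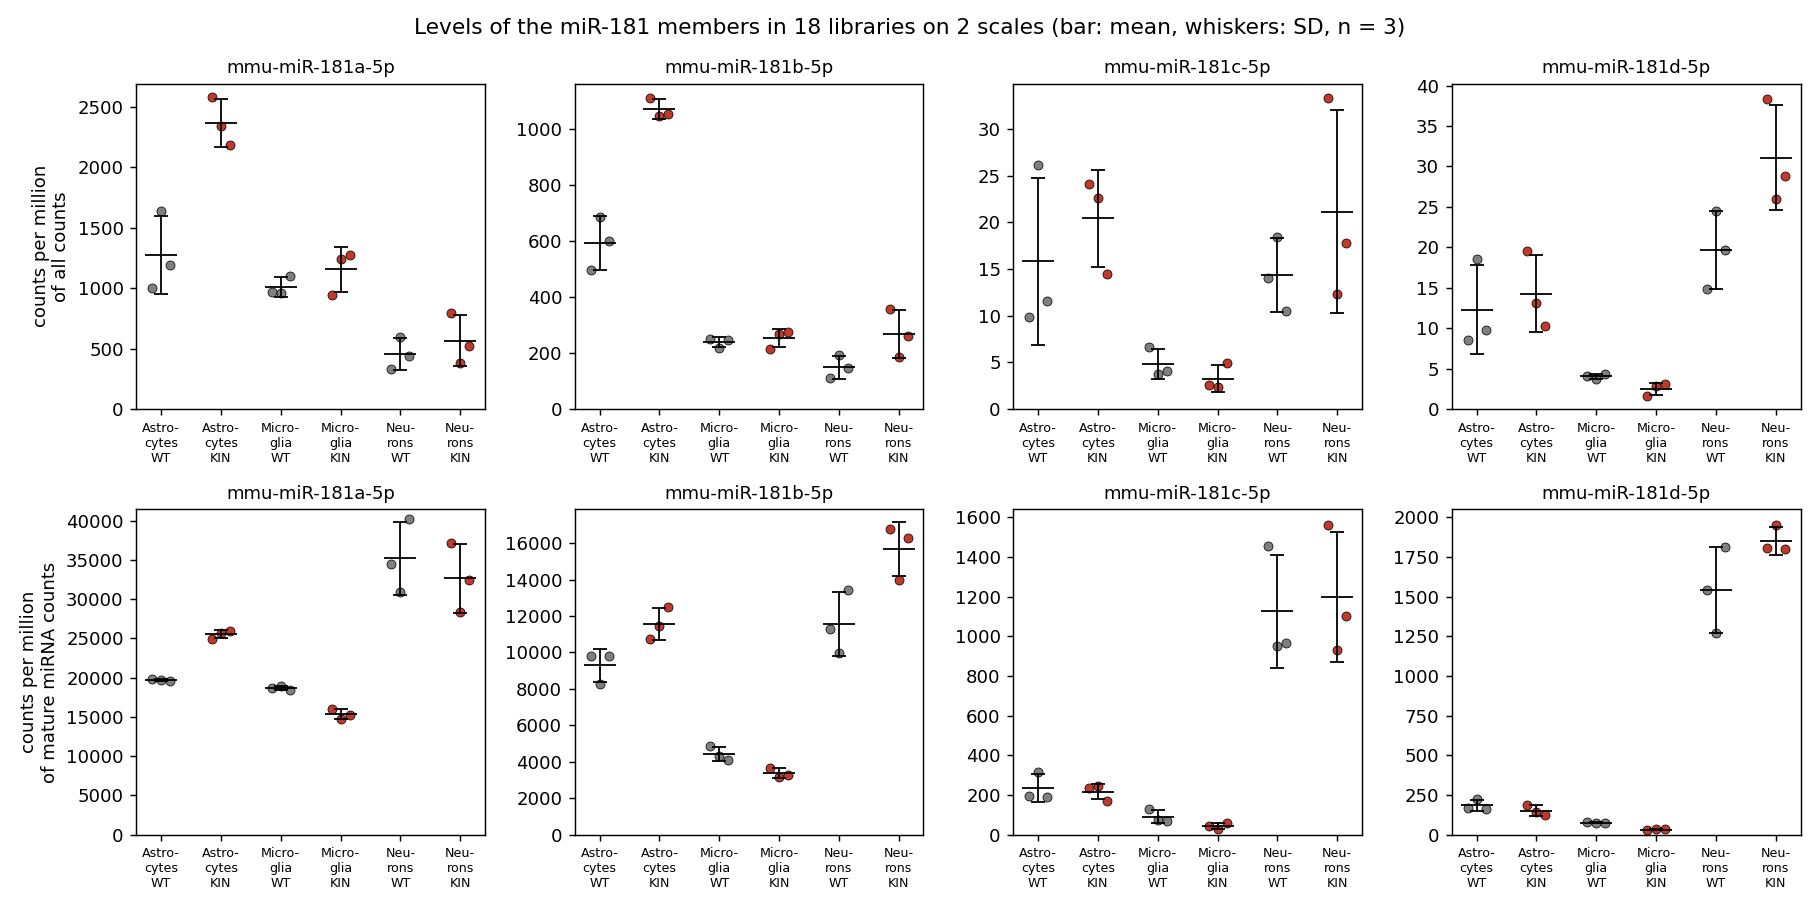
Levels of the 4 miR-181 members in each library (points, gray for WT and red for KIN) with the mean (bar) and SD (whiskers) of 3 libraries, as counts per 1000000 of all counts (upper row) and per 1000000 mature miRNA counts (lower row), on linear axes. miR-181a-5p and miR-181b-5p stood highest in KIN astrocytes on the upper scale, while all 4 members had their highest group mean in a neuron group on the lower scale.

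The comparison of KIN with WT asks whether the Atxn2 expansion was accompanied by a different level of each member in each cell fraction. In astrocytes, miR-181a-5p was 2.01-fold higher in KIN (log2 fold change 1.01 ± 0.18 SE, adjusted p = 0.0111 by edgeR's quasi-likelihood test) and miR-181b-5p 1.97-fold higher (0.98 ± 0.14, adjusted p = 0.0047). Both rose, though only miR-181a-5p also met the fold threshold of a log2 change of at least 1, so that 1 of 4 members was called, against 8.18% of all features tested. By the adjusted p alone, 2 of 4 members passed, against 11.7% of all features. The changes of miR-181c-5p (0.46 ± 0.40, adjusted p = 0.442) and miR-181d-5p (0.31 ± 0.38, adjusted p = 0.597) did not pass.

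The rise of miR-181a-5p and miR-181b-5p in astrocytes has to be read against the other miRNAs. The median log2 fold change of the 418 mature miRNAs tested was 0.58, and 11.2% of them were called higher (17.5% by the adjusted p alone). Of these 418, 98 had a higher value than miR-181a-5p and 104 a higher value than miR-181b-5p. When library sizes were scaled by mature miRNAs alone, the change was 0.33 ± 0.21 (adjusted p = 0.216) for miR-181a-5p and 0.28 ± 0.22 (adjusted p = 0.317) for miR-181b-5p, so neither rise passed on that scale. On that scale miR-181c-5p and miR-181d-5p were lower in KIN, at -0.14 and -0.33, which did not pass either. The adjusted p of miR-181a-5p also moved when single libraries were left out. It went up to 0.0828 without WT replicate 3, and was above 0.05 without any 1 of the KIN libraries. That of miR-181b-5p was at most 0.0455 in each such fit. Without WT replicate 3 or any 1 of the KIN libraries, the log2 fold change of miR-181a-5p was 0.92 to 1.06. In those fits 41 to 67 of all features were called, in place of 466. WT replicate 2 had the highest mature miRNA percentage of the WT astrocytes (8.30%). Without it, the change of miR-181c-5p was 1.06 with an adjusted p of 0.0164 by edgeR. In that fit the median of mature miRNAs was 0.92, 1527 of 5363 features were called and 2032 passed the adjusted p alone.

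In microglia, 0 of 4 members were called, against 4.35% of all features and 8.38% of mature miRNAs called higher. The unadjusted p was below 0.05 for 0 of the 4 by edgeR, against 1250 of 4940 features tested, and DESeq2 called 0 of the 4. The log2 fold changes were 0.41 ± 0.18 (adjusted p = 0.2) for miR-181a-5p and 0.30 ± 0.18 (adjusted p = 0.367) for miR-181b-5p, both below the median of 0.46 over 382 mature miRNAs. Scaled by mature miRNAs they were -0.01 and -0.12. miR-181c-5p and miR-181d-5p were at -0.32 ± 0.45 and -0.48 ± 0.41, with adjusted p of 0.749 and 0.533, and remained negative on both scales.

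In neurons, 0 of 4 members were called, against 0% of all features and, among mature miRNAs called higher, 0%. By edgeR 197 of 4535 features tested had an unadjusted p below 0.05, among them 1 member, miR-181b-5p, and DESeq2 called 0 features. Its log2 fold change was 0.84 ± 0.34 (adjusted p = 0.917), and 17 of 217 mature miRNAs had a higher value. The other members were at 0.30 ± 0.33, 0.54 ± 0.46 and 0.65 ± 0.38 for miR-181a-5p, miR-181c-5p and miR-181d-5p, against a median of 0.01 over mature miRNAs. The neuron libraries were the shallowest, and miR-181c-5p and miR-181d-5p had 16 to 90 counts in each.

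**Figure D2:**
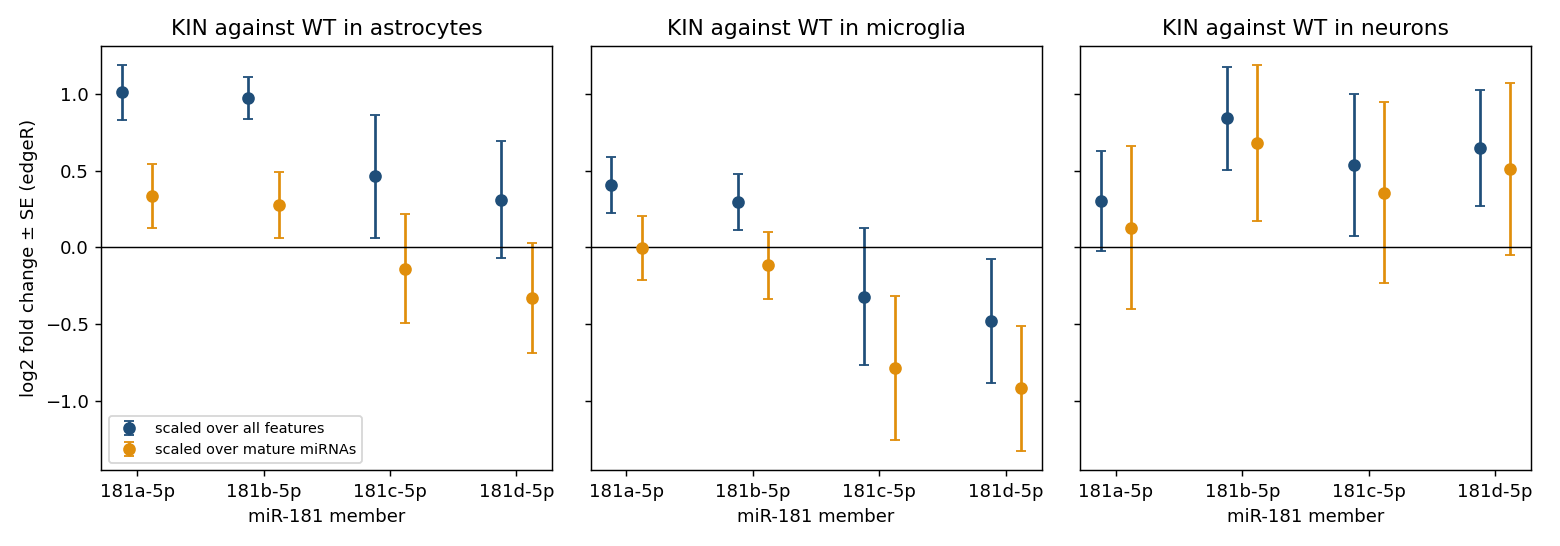
Log2 fold change of KIN against WT (points) with its standard error (whiskers) for each member in each fraction, from edgeR fits with library sizes scaled over all features (blue) or over mature miRNAs (orange), n = 3 libraries per group. In astrocytes miR-181a-5p moved from 1.01 to 0.33 and miR-181b-5p from 0.98 to 0.28 between the scalings, and in microglia all 4 members were below 0 with the second scaling.

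A percentage of mature miRNA counts takes out the difference in the miRNA content of the libraries. By this measure miR-181a-5p and miR-181b-5p separated by genotype in opposite directions in astrocytes and microglia. In edgeR fits scaled by mature miRNAs, the log2 fold changes in microglia were -0.01 ± 0.21 (adjusted p = 0.987) and -0.12 ± 0.22 (adjusted p = 0.738). The fall in microglia was thus not seen to the same extent with that scaling. miR-181a-5p held 1.99%, 1.97% and 1.96% in WT astrocytes and 2.49%, 2.57% and 2.59% in KIN astrocytes. In microglia it held 1.87%, 1.90% and 1.84% in WT and 1.61%, 1.47% and 1.53% in KIN. KIN libraries were thus above all WT libraries in astrocytes and below all WT libraries in microglia, while the SD within each of these groups was at most 0.0663 percentage points. In neurons it held 3.45%, 3.09% and 4.02% in WT and 3.72%, 2.83% and 3.24% in KIN, with overlap.

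miR-181b-5p held 0.982%, 0.826% and 0.983% in WT astrocytes and 1.08%, 1.15% and 1.25% in KIN astrocytes. In microglia it held 0.486%, 0.430% and 0.410% in WT and 0.367%, 0.315% and 0.328% in KIN. In neurons it held 1.13%, 0.995% and 1.34% in WT and 1.68%, 1.40% and 1.63% in KIN. KIN libraries were above the WT libraries in astrocytes and neurons and below them in microglia, with no overlap in any fraction.

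The minor members separated in microglia alone. miR-181d-5p held 0.00780%, 0.00736% and 0.00728% in WT microglia and 0.00271%, 0.00329% and 0.00362% in KIN microglia, a KIN over WT ratio of 0.429. miR-181c-5p held 0.0128%, 0.00736% and 0.00683% in WT microglia and 0.00434%, 0.00274% and 0.00585% in KIN microglia, a ratio of 0.479. In astrocytes and in neurons the genotypes overlapped for both. The miRNAs of other cell types also separated by genotype in the microglia libraries. Per 1000000 mature miRNA counts, summed miR-9-5p and miR-9-3p, abundant in cells of the neural lineage, were at 1619 to 4082 in WT microglia and 719 to 1008 in KIN microglia. The 5 neuronal miRNAs summed were at 1274 to 3280 and 702 to 883, and the 4 vascular miRNAs summed at 6967 to 9183 and 3035 to 4445, in the same order. Among the neuronal ones, miR-138-5p, miR-132-3p and miR-212-3p each overlapped between the genotypes. The part of these miRNAs of other cell types in the percentages of the members was not tested. Of 12 comparisons of KIN with WT (4 members in 3 fractions), 7 showed no overlap. Each of these had p = 0.1 in the exact permutation test (two-sided), the smallest value possible with 3 libraries in each group (0.171 after Benjamini-Hochberg adjustment), so none could pass 0.05. The share of all mature miRNAs without overlap on this scale is not given here, so the 7 are not set against a background.

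The 4 members summed held 3.00%, 2.85% and 2.98% of mature miRNA counts in WT astrocytes and 3.61%, 3.75% and 3.87% in KIN astrocytes, a ratio of 1.27. In microglia the sum was 2.37%, 2.34% and 2.26% in WT and 1.98%, 1.79% and 1.87% in KIN, a ratio of 0.809. In neurons it was 4.88%, 4.31% and 5.64% in WT and 5.73%, 4.52% and 5.16% in KIN, with overlap.

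Whether the KIN effect differed between fractions was tested in 2 ways. In the edgeR interaction fits of CPM levels, 0 of 4 members were called in any of the 3 contrasts. The share of all features called was 0.312% for microglia minus astrocytes, 0% for neurons minus astrocytes and 0.639% for neurons minus microglia. In the contrast with no call among all features, 598 of 7084 features tested had an unadjusted p below 0.05 by edgeR, and DESeq2 called 0. For microglia minus astrocytes the difference was -0.60 ± 0.28 (adjusted p = 0.478) for miR-181a-5p and -0.67 ± 0.25 (adjusted p = 0.322) for miR-181b-5p. Both had an unadjusted p below 0.05 by edgeR, as did 732 of all 7053 features tested. Without WT astrocyte replicate 2, both were called, at -1.07 and -1.04, among 119 of 6801 features.

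On the percentages of mature miRNA counts, the difference was tested by exact permutation of the genotypes within fractions (400 label orders, two-sided, 12 tests, chosen after the percentages had been seen). This test treats the libraries of different fractions as independent, whereas the study's methods describe the fractions as isolated in sequence from the same brain. The log2 KIN over WT ratio in microglia was lower than in astrocytes by 0.65 for miR-181a-5p (-0.28 against 0.37) and by 0.71 for miR-181b-5p (-0.39 against 0.32), each with an adjusted exact p of 0.02. For miR-181b-5p the ratio in neurons was higher than in microglia by 0.83 (adjusted exact p = 0.02), and for miR-181d-5p by 1.49 (adjusted exact p = 0.045). The raw exact p of 0.005 behind the first 3 is the smallest that these orders can give. The other 8 differences had adjusted p of 0.072 or above in this exact test. The share of all mature miRNAs that would pass it is not given here. The labels do not tie a replicate number to a brain. Xist, transcribed from the inactive X chromosome, had 4 to 5 counts in KIN replicate 1 of each fraction and 44 to 88 in the other KIN libraries. In WT replicates 1, 2 and 3 it had 33, 102 and 25 counts in astrocytes, 37, 36 and 41 in microglia and 12, 50 and 12 in neurons. When the libraries of a genotype and number were kept together, an alternative chosen after seeing the data, 20 orders remained and each of the 4 differences had an exact permutation p of 0.1, the smallest possible, so that none could pass 0.05. The sum of the neural lineage miRNAs separated by genotype in the other fractions as well as in microglia. Summed miR-9-5p and miR-9-3p ranged from 113310 to 115557 per 1000000 mature miRNA counts in WT astrocytes and from 70351 to 82168 in KIN astrocytes. In neurons the sum ranged from 99957 to 138484 in WT and from 169550 to 191613 in KIN. There only miR-9-5p separated, while miR-9-3p overlapped, at 32661 to 49912 in WT and 40040 to 48249 in KIN. The part of miR-9-5p and miR-9-3p in the percentages of the members was not tested.

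Within a genotype, the members were then compared between fractions. In WT, microglia against astrocytes, 3 of 4 members were called (31.5% of all features). miR-181b-5p was lower in microglia at a log2 fold change of -1.21 ± 0.22 (adjusted p = 0.00194), miR-181c-5p at -1.65 ± 0.48 (adjusted p = 0.0206) and miR-181d-5p at -1.52 ± 0.44 (adjusted p = 0.0201). miR-181a-5p did not pass, at -0.24 ± 0.24 (adjusted p = 0.448). Without WT astrocyte replicate 2, 0 of 4 met both thresholds and miR-181a-5p was at 0.21, and without WT microglia replicate 3 only 1 did. In KIN, 3 of 4 were called (35.3% of all features), with miR-181b-5p at -1.95 ± 0.16, miR-181c-5p at -2.49 ± 0.37 and miR-181d-5p at -2.35 ± 0.36. miR-181a-5p was lower at -0.91 ± 0.16 (adjusted p = 0.000631) and missed the fold threshold alone. Scaled by mature miRNAs, miR-181b-5p, miR-181c-5p and miR-181d-5p were also lower in microglia in both genotypes, by log2 fold changes from -1.06 to -2.36.

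The comparison of neurons with glia turned with the scale. On the scale of all features, miR-181a-5p was lower in WT neurons than in WT astrocytes (-1.70 ± 0.34, adjusted p = 0.00826), as was miR-181b-5p (-2.20 ± 0.33, adjusted p = 0.0031), but scaled by mature miRNAs they were at 0.71 and 0.18, that is, higher in neurons. These 2 of 4 members were called in WT (28.7% of all features) and also in KIN (46.3%), where they were at -2.34 ± 0.20 and -2.26 ± 0.20 over all features and at 0.76 and 0.84 over mature miRNAs. miR-181d-5p was the exception, with 0.46 ± 0.46 (adjusted p = 0.456) in WT and 0.88 ± 0.30 (adjusted p = 0.0138) in KIN over all features, and positive on both scales. miR-181c-5p did not pass in either genotype over all features.

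Against microglia, miR-181d-5p was 4.26-fold higher in WT neurons (2.09 ± 0.43, adjusted p = 0.00613) and 8.84-fold higher in KIN neurons (3.14 ± 0.39, adjusted p = 3.03e-07). miR-181c-5p was 2.62-fold (1.39 ± 0.45, adjusted p = 0.0435) and 4.58-fold higher (2.20 ± 0.42, adjusted p = 0.000127). Leaving out any 1 library took miR-181c-5p past 0.05 in WT, to adjusted p of 0.0525 to 0.174, and leaving out WT microglia replicate 1 took miR-181d-5p to 0.0507. miR-181a-5p was lower in neurons over all features, at -1.34 ± 0.31 in WT and -1.51 ± 0.26 in KIN, but higher over mature miRNAs, at 0.67 and 0.93. Of 4 members, 3 were called in WT (28% of all features) and 3 in KIN (53%). miR-181b-5p was at -0.87 ± 0.34 (adjusted p = 0.0843) and -0.39 ± 0.27 (adjusted p = 0.209) and did not pass.

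Composition within the family does not depend on the scale, because all members come from the same library. In astrocytes miR-181b-5p had 0.494, 0.419 and 0.501 counts per count of miR-181a-5p in WT and 0.431, 0.446 and 0.483 in KIN. In microglia the ratio was lower, at 0.260, 0.227 and 0.223 in WT and 0.229, 0.214 and 0.215 in KIN. In neurons it was 0.328, 0.322 and 0.334 in WT and 0.450, 0.493 and 0.502 in KIN. KIN neurons thus lay above all WT neurons and overlapped the astrocytes, while the genotypes overlapped in both glial fractions.

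miR-181c-5p made up 1.72% to 2.98% of the family in neurons and at most 1.10% in glia, and miR-181d-5p 2.95% to 4.32% in neurons and at most 0.786% in glia. miR-181d-5p had 0.108 to 0.140 counts per count of miR-181b-5p in neurons and 0.00739 to 0.0271 in glia. The neuron libraries did not overlap the glial libraries in this ratio, and the part of reads misplaced between the 2 sequences was not tested.

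**Figure D3:**
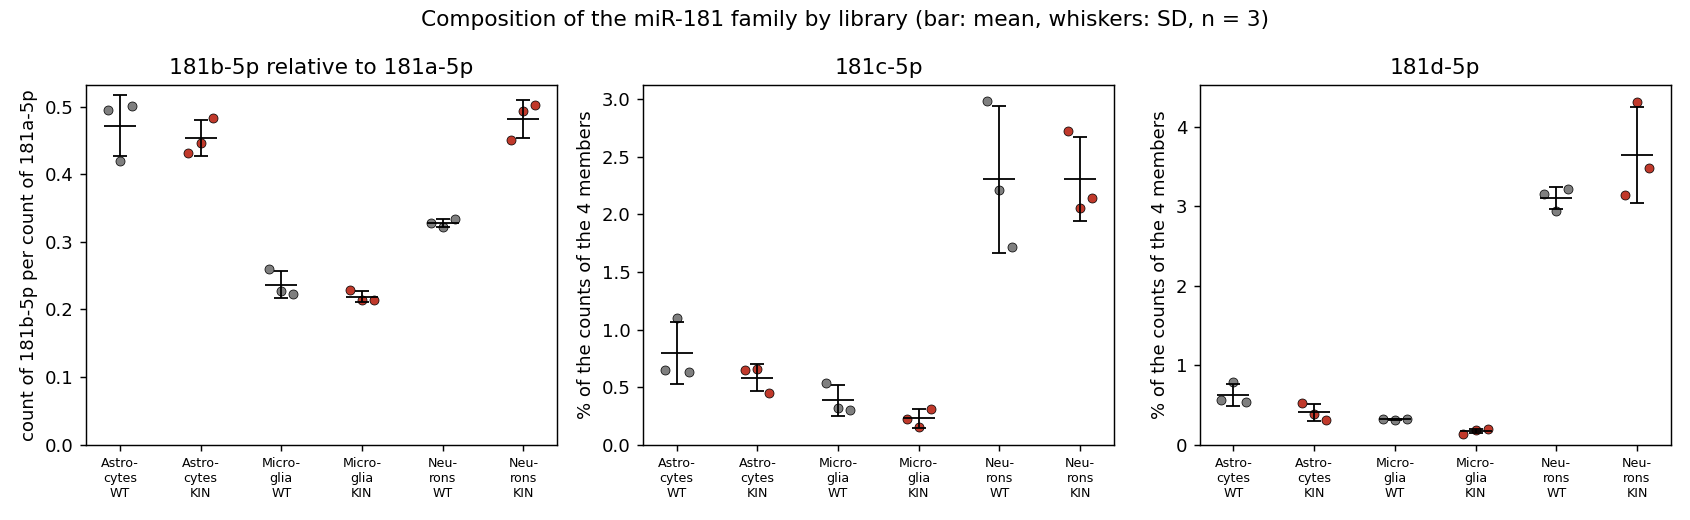
Counts of miR-181b-5p per count of miR-181a-5p (left) and the percentage of the counts of the 4 members held by miR-181c-5p (middle) and miR-181d-5p (right) in each library (points), with the mean and SD of 3 libraries. The ratio was lowest in microglia, at 0.214 to 0.260, and both minor members took a larger part of the family in neurons than in any glial library.

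The passenger strands of the chromosome 1 and chromosome 2 hairpins of miR-181a differ, unlike their 5p strands, and so give a reading per locus:
mmu-miR-181a-1-3p: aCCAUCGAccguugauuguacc
mmu-miR-181a-2-3p: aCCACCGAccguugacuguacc

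They differ by U5C and U16C, the first of which lies in the seed in capitals. In WT astrocytes miR-181a-1-3p had 31, 60 and 41 counts and miR-181a-2-3p had 3, 5 and 4. In WT microglia the order was turned, with 38, 28 and 45 counts of miR-181a-1-3p and 56, 56 and 85 of miR-181a-2-3p. The chromosome 1 strand thus held 91.5% ± 0.673 (SD, n = 3) of both in WT astrocytes and 36.1% ± 3.78 in WT microglia, without overlap (exact permutation p = 0.1, the smallest that 3 against 3 libraries allow). In KIN the values were 93.3% ± 1.43 in astrocytes and 41.9% ± 7.60 in microglia, again without overlap and with an exact permutation p of 0.1.

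In neurons the strands were sparse, with 11 to 32 counts of both in a library. The chromosome 1 strand held 72.7%, 78.1% and 81.3% in WT neurons and 83.3% and 75.0% in KIN neurons of replicates 1 and 2 and all 15 counts in replicate 3, and the exact 95% binomial limits of single libraries, which cover counting error only, reached down to 39.0%. These libraries all lay above the microglia, while the KIN neurons overlapped the KIN astrocytes. The genotypes overlapped within each fraction. The passenger strands were 0.989% to 1.26% of the miR-181a strands in astrocytes, 1.99% to 3.12% in microglia and 1.18% to 2.67% in neurons. Astrocytes and microglia thus differed in the part of the passenger strands, and its bearing on the reading per locus was not tested.

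**Figure D4:**
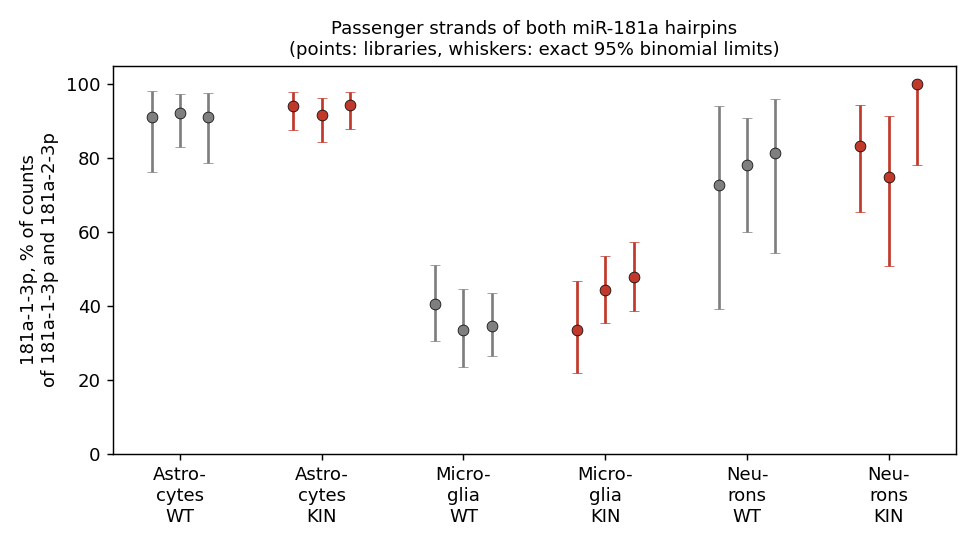
Percentage of the miR-181a-1-3p and miR-181a-2-3p counts that were miR-181a-1-3p in each library (points, gray for WT and red for KIN), with exact 95% binomial limits (whiskers) on a linear axis. The astrocyte libraries lay between 91.1% and 94.2%, and the microglia libraries between 33.3% and 47.9%.

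Read as levels over all features, miR-181a-2-3p was higher in microglia than in astrocytes by a log2 fold change of 4.07 ± 0.43 in WT (adjusted p = 5.6e-05) and 3.06 ± 0.33 in KIN (adjusted p = 1.39e-05), while miR-181a-1-3p was at -0.18 ± 0.35 (adjusted p = 0.721) in WT and at -1.14 ± 0.28 (adjusted p = 0.00672) in KIN. In KIN against WT astrocytes miR-181a-1-3p rose by 1.18 ± 0.26 (adjusted p = 0.0244), as its 5p strand did. miR-181a-2-3p was at 0.80 ± 0.48 (adjusted p = 0.261) in the same comparison, on 3 to 8 counts per library. The passenger strands of the other hairpins were rare, with 56 counts of miR-181b-1-3p, 49 of miR-181c-3p, 15 of miR-181b-2-3p and 2 of miR-181d-3p over the 18 libraries. All 15 counts of miR-181b-2-3p, the other passenger strand of the chromosome 2 locus, were in microglia, with 1 to 6 in each of the 6 libraries.

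The table also lists the hairpin transcripts, in a later placement round that received reads left over from the mature miRNAs. They do not tell the loci apart, since Mir181a-1 and Mir181a-2 share a run of 28 bases that holds the 5p strand and had 22899 and 22513 counts over the 18 libraries. In KIN astrocytes the rows of Mir181b-2 (1.02 ± 0.15, adjusted p = 0.00515) and Mir181b-1 (1.01 ± 0.16, adjusted p = 0.00822) were called higher, and those of Mir181c and Mir181d were at 0.49 ± 0.42 and 0.06 ± 0.41 (adjusted p = 0.436 and 0.936). Rows of the host genes Nr6a1 and Nr6a1os had at most 18 counts each in all libraries, so these hosts were not measurable. The listed Mir181a-1hg transcript, whose exon holds the Mir181b-1 hairpin, had 4466 counts, close to the 4502 of the Mir181b-1 row. Its change in KIN against WT astrocytes was 0.99 ± 0.14 (adjusted p = 0.0047 by edgeR), also close to that row. Its counts can hold reads of the hairpin sequence, so they are not a separate measure of the host.

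miR-181a-5p and miR-181b-5p moved together over the 18 libraries (Pearson r of log2(CPM + 1) = 0.88), as did miR-181c-5p and miR-181d-5p (r = 0.90), while miR-181a-5p and miR-181d-5p did not (r = -0.29). These correlations are descriptions over libraries that share fractions, genotypes and differences in miRNA content. Among 155 other mature miRNAs with a mean of at least 50 counts, the profiles most like miR-181a-5p were those of miR-872-5p (r = 0.97), miR-101a-3p (0.96) and miR-30c-5p (0.96), against a median r of 0.79 over all 155. Those most like miR-181b-5p were miR-125b-5p (0.98), miR-497a-5p (0.97) and let-7c-5p (0.96). For both miR-181c-5p and miR-181d-5p the nearest profiles were miR-9-3p (0.91 and 0.88) and miR-9-5p (0.88 and 0.77).

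A small RNA library holds only short fragments of messenger RNAs. Even so, 19 genes described as miR-181 targets were tested, with transcripts summed per gene, in separate edgeR fits of the same libraries. These genes had a median of 54 counts over the 18 libraries. The filter on low counts was passed by 9 genes in astrocytes, 8 in microglia and 8 in neurons. In astrocytes 1 of 9 was called lower and 0 were called higher. Of all features of the main fit, which are not summed by gene, 8.18% were called in either direction, and 364 of 5694 were called lower. The median log2 fold change of the genes tested was -0.75 against -0.19 over all features. All features include mature miRNAs (median 0.58). No median of coding transcripts alone is given here, so whether the gap is particular to targets was not tested. The gene called lower was Gria2, which encodes a subunit of AMPA-type glutamate receptors, with 79 counts in the WT and 24 in the KIN libraries (-1.64 ± 0.41, adjusted p = 0.0371). The sum of the 5 neuronal miRNAs also differed in these libraries, at 24375 to 38886 per 1000000 mature miRNA counts in WT and 12487 to 19745 in KIN astrocytes. Among the 5, miR-138-5p overlapped and was not lower in KIN, at 1446 to 1915 in WT and 1868 to 1993 in KIN. The part of these miRNAs in the Gria2 counts was not tested. Timp3, an inhibitor of matrix metalloproteinases, was at -1.51 ± 0.48 (adjusted p = 0.0644), and Hspa5, a chaperone of the endoplasmic reticulum, at -0.75 ± 0.36 (adjusted p = 0.162). In microglia 0 of 8 were called, against 4.35% of all features, and in neurons 0 of 8, against 0% of all features, and by an unadjusted p also 0 of 8 in each. The medians were -0.28 and -0.34, against -0.11 over all features in both.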

How the data were processed

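The table held small RNA counts for 18 libraries of mouse brain cell fractions. Per the study's methods, trimming by the authors was with Cutadapt 4.6 and placement with Bowtie2 2.4.4 in local mode in successive rounds (mature miRNAs, tRNAs, piRNAs, Ensembl noncoding and coding transcripts, mm39), and HTSeq 2.0.2 counted reads without strand. The deposited counts are whole reads per feature and are not normalized. The kit adds molecular identifiers, but their use was not given for these libraries in the sources used here, so counts are reads. Left out were 36 columns that hold values per library on another scale, and the authors' columns of log2 fold changes and p-values.

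Groups and replicate numbers came from the library titles. Counts were tested with edgeR 4.0.16 (R 4.3.3, limma 3.58.1), quasi-likelihood, in fits of the 6 libraries of a comparison (12 for differences between fractions), with TMM factors over all features. The test covered features that reached 5 counts in 2 or more libraries, with Benjamini-Hochberg adjustment over all of these. A call needed an adjusted p no higher than 0.05 together with a log2 fold change of 1 or more in either direction. Percentages of mature miRNA counts were compared by exact two-sided permutation tests. The scripts were tested on simulated data. Alternatives were library totals, TMM factors over mature miRNAs, DESeq2 1.42.0, no filter, a replicate block, 1 fit of all libraries, hairpin counts added, and leaving out each library.

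Libraries with the same number correlated above 0.1 in all 3 pairs for 2 of 9 group pairs, WT astrocytes with WT microglia (0.119 to 0.434) and with WT neurons (0.223 to 0.449), over 2297 features with a mean of at least 20 counts, and the labels do not say what a number marks. In those 2 pairs the block changed no call of a member. The members and lists were chosen with earlier results of these data known. Named were the 4 members, the other features of their loci, for each member the most correlated miRNAs with a mean of at least 50 counts, 19 genes described as targets, and cell type miRNAs.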

Additional observations from a re-analysis of the deposited data

Results flagged for a closer look

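In 4 comparisons the effect of KIN on a member's percentage of mature miRNA counts passed the exact permutation test of a difference between fractions (12 tests, chosen after the percentages had been seen), which treats the libraries of different fractions as independent. The share of all mature miRNAs that would pass it is not given here. With the libraries of a genotype and number kept together, each had an exact permutation p of 0.1, the smallest possible, so none could pass. The difference in log2 ratio between microglia and astrocytes was -0.65 for miR-181a-5p and -0.71 for miR-181b-5p, and all KIN libraries lay above all WT libraries in astrocytes and below them in microglia. Scaled over mature miRNAs in edgeR fits, the log2 fold changes in microglia were only -0.01 ± 0.21 and -0.12 ± 0.22. Between neurons and microglia the difference was 0.83 for miR-181b-5p and 1.49 for miR-181d-5p, the latter on 5 to 16 counts per microglia library. Without the 10 most abundant other miRNAs in the denominator, an alternative chosen after seeing the data, the 4 differences were -0.52, -0.57, 0.83 and 1.48.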

How the results depend on the processing

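Of the alternatives run, the scaling of the libraries moved the members most. Scaled over mature miRNAs, the median log2 fold change of KIN against WT over all features shifted from -0.19 to -0.91 in astrocytes and from -0.11 to -0.53 in microglia. In astrocytes the members were then at 0.33, 0.28, -0.14 and -0.33 (miR-181a-5p, miR-181b-5p, miR-181c-5p, miR-181d-5p), and in microglia miR-181a-5p and miR-181b-5p were at -0.0051 and -0.12. Neurons against astrocytes came to 0.71, 0.18 and 2.11 in WT and 0.76, 0.84 and 2.87 in KIN (miR-181a-5p, miR-181b-5p, miR-181c-5p), and neurons against microglia to 0.67 and 1.14 in WT and 0.93 and 2.06 in KIN (miR-181a-5p, miR-181b-5p). With library totals, miR-181c-5p was at 0.049 in KIN neurons against astrocytes and miR-181b-5p at 0.087 in KIN neurons against microglia. In 1 fit of all libraries, miR-181a-5p (1.02) and miR-181b-5p (0.99) in astrocytes had an adjusted p of 0.0588 each by edgeR. Without the filter 1 member was called in WT neurons against microglia, in place of 3. The family's log2 ratio in microglia was -0.18, in place of -0.31, without the 10 most abundant other miRNAs in the denominator. The cause of these shifts was not tested beyond the change of setting itself.

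Leaving out 1 library at a time gave log2 fold changes in astrocytes of 0.81 to 1.24 for miR-181a-5p and 0.18 to 1.06 for miR-181c-5p. In neurons miR-181a-5p ranged from -0.0014 (without KIN replicate 1) to 0.49. In WT microglia against astrocytes miR-181a-5p ranged from -0.39 to 0.21 and the members called from 0 to 3. In WT neurons against astrocytes miR-181c-5p ranged from -0.62 to 0.43, the positive value without WT astrocyte replicate 2, and in WT neurons against microglia 1 to 2 members were called. The difference of the KIN effect between microglia and astrocytes had 0 to 2 members called, and the family's log2 ratio in neurons ranged from -0.034 to 0.16, below 0 without WT replicate 2 or KIN replicate 1.

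With the replicate block, the astrocyte changes were 1.05 for miR-181a-5p and 0.99 for miR-181b-5p, and of the members' calls by the adjusted p, miR-181c-5p in WT neurons against microglia was lost (1.39, adjusted p = 0.0552 by edgeR). The replicate numbers are not known to pair the libraries. Over all features the block called 49 in microglia in place of 215 and 61 in place of 22 for the difference between microglia and astrocytes, and 75 when blocked by genotype and number, an alternative chosen after seeing the data.

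Counts of features called also moved with other settings. In astrocytes 466 were called, 1494 scaled over mature miRNAs, 159 in 1 fit of all libraries and 41 to 1527 without 1 library. The share of higher calls there was 21.9%, and 11.8% with library totals, 1.07% scaled over mature miRNAs, 33.8% by DESeq2 and 44.7% without the filter. In microglia 215 were called, 329 scaled over mature miRNAs, 378 by DESeq2, 426 without the filter, 334 in 1 fit and 0 to 940 without 1 library. In neurons 0 were called, and 20, 75 and up to 52 scaled over mature miRNAs, without the filter and without 1 library. In WT, 1698 (neurons against astrocytes) and 1446 (neurons against microglia) were called, 3104 and 3079 scaled over mature miRNAs, of which 94.3% and 92.7% were higher in place of 35.7% and 48.1%, and 911 to 1940 and as few as 867 without 1 library. In KIN, 2314 and 2584 became 4286 and 3942, with 95.3% and 92.3% higher in place of 48% and 50.5%. For the differences of the KIN effect, 22 (microglia minus astrocytes), 0 (neurons minus astrocytes) and 41 (neurons minus microglia) were called, 136, 0 and 139 by DESeq2, 10, 0 and 81 scaled over mature miRNAs, 108, 5 and 100 without the filter, and from 0 up to 362, 2 and 120 without 1 library. Counting error weighs most on miR-181c-5p and miR-181d-5p, with as few as 5 counts in a microglia library.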
